A study of Mus musculus with 36 samples.

Results

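Enteric glial cells (EGCs) stimulated for 24 h with medium conditioned by tumor cells (TME-CM) were compared with unstimulated EGCs of the same time point. The comparison takes the 8 libraries whose titles name these conditions at 24 h, 4 of each group, out of 36 libraries in the series, and covers every gene that passed a filter on low counts. All 8 came from wild-type C57BL/6J mice: neurospheres, the floating clusters formed by progenitors, were grown from whole intestines of embryos at E13.5 and then differentiated into primary EGC cultures in DMEM complete, a serum-containing medium. TME-CM was this medium after a night with the mixed cells of digested orthotopic tumors of MC38, a mouse colon carcinoma line, and the unstimulated EGCs were naive cultures. The 4 libraries of EGCs given medium from digested healthy colon (H-CM) at 24 h entered the same fit and stand beside the results as a second reference. The cultures were not sorted, and how many embryos or separate cultures lie behind the 4 libraries of a group is not given in the sources used here, so that p-values measure only the spread between these libraries.

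Enteric glia are the supporting cells of the nervous system of the gut, marked by the transcription factor Sox10 and by S100b. Like astrocytes of the brain, they respond to inflammatory cytokines by producing chemokines, acute-phase proteins and growth factors. Cytokines of the IL-1 family act through NF-kappaB, IL-6 and its relatives through STAT3, and interferons through other STAT proteins, and each route has well-known target genes.

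Each library was read from the 3′ end of the transcripts, which leaves counts without scaling by transcript length, and levels are compared within a gene only. The total count lay between 4064537 and 6778936 in unstimulated and between 2895248 and 6296652 in TME-CM libraries, with 14363 to 16689 genes detected. Of the H-CM libraries, replicate 4 was the shallowest with 1608018 counts. Unstimulated replicate 1 and TME-CM replicate 2 stood apart. A single entry of the table, Yam1, took 30.7% and 35.1% of their counts against 12.7% to 18.1% in the other 6, and their correlation with libraries of their own group over log2 CPM (counts scaled to a common library total) was 0.919 to 0.938 against 0.964 to 0.973 among the others. The share on Yam1 averaged 19.7% ± 10.3 in TME-CM and 19.5% ± 7.83 in unstimulated libraries (SD, n = 4 each, two-sided exact permutation p = 1). Values below are CPM on TMM-scaled totals, in the order of replicates 1 to 4, unless a mean ± SD is given.

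The identity of the cultures was checked against marker genes. All 6 enteric glial markers tested were detected in every library, with a summed level of 384 to 437 CPM in unstimulated and 366 to 517 CPM in TME-CM libraries. Sox10 was at 67, 64.4, 66.7 and 91.9 CPM in unstimulated and at 76.9, 74.2, 72.7 and 74.6 CPM in TME-CM EGCs (log2 fold change 0.04, standard error 0.14, adjusted p = 0.95). Gfap, an intermediate filament gene of glia, was low in both groups, at 3.91 ± 0.858 and 4.63 ± 2.32 CPM. Markers of other cells were present as well. The 12 smooth muscle markers summed to 11090.0 to 13173 CPM in unstimulated and 3107 to 4269 CPM in TME-CM libraries, the 8 mesenchymal markers to 5986 to 7494 and 6453 to 7847 CPM, and the 16 enteric neuron markers to 786 to 939 and 966 to 1282 CPM. The cultures therefore held transcripts of all 4 lineages, and in bulk RNA fewer cells of a type and less RNA per cell cannot be told apart. Of 19 markers of macrophages and other immune cells, 14 were tested and 1 was called, S100a8, while the whole list summed to 75.6 to 323 CPM in unstimulated and 122 to 524 CPM in TME-CM libraries. Ly6g and Cd79a, which mark neutrophils and B cells, had no count in any of the 8 libraries. Epithelial markers, which would include those of the carcinoma cells, summed to 2.89 to 7.98 and 2.28 to 8.72 CPM, and endothelial markers to 47.1 to 71.6 and 13.2 to 31 CPM. The part of these other cells in the results below was not tested.

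TME-CM EGCs differed from unstimulated EGCs at 24 h in 1210 of 12713 genes tested, or 9.52%, at an adjusted p under 0.05 (edgeR's quasi-likelihood test, Benjamini-Hochberg). Of these, 613 (4.82% of the genes tested) were higher and 597 (4.7%) were lower in TME-CM EGCs. The changes upward were larger: 205 genes rose and 68 fell by at least 2 on the log2 scale, and at a limit of 5 the counts were 36 and 2. The median log2 fold change was 1.39 among the genes that rose, −0.95 among those that fell and 0.0044 over all genes tested. The 4 TME-CM libraries lay entirely above or below the 4 unstimulated libraries for 1072 of the 1210 genes and for 13.1% of all genes tested. The 1210 genes were called on these same libraries, so a high share among them follows from the calling and is no separate support. One model of all 36 libraries, which shares its estimate of the spread with the more variable libraries of 6 h, called 265 genes, 195 higher and 70 lower. It ended the calls of 44 genes named below, which are Artn, Cd14, Cd59a, Cd74, Chrm2, Col1a1, Col5a3, Cryab, Cxcl12, Cxcl14, Ednrb, Emcn, Gfra2, Gm26722, H2-Aa, Hey1, Icam1, Il1r2, Itgb1, Jag1, Junb, Kcnc4, Kdr, Mmp11, Ncam1, Nes, Nlrc5, Ntn4, Ntsr1, Odc1, Pdgfa, Pdgfra, Pdgfrb, Plxna4, Ptx3, Ramp1, S1pr3, Slc40a1, Smtn, Stat3, Vcam1, Vim, Vip and Wscd2. The filter kept genes that reached it in 4 libraries of any kind, and 502 genes did so only through TME-CM libraries (73 of them rose) and 447 only through unstimulated ones (25 fell), so that counts of tested genes that rose or fell depend in part on the filter. With unstimulated replicate 1 and TME-CM replicate 2 left out of the 24 h fit, 721 genes were higher and 740 lower, among them 563 and 543 of the genes called with all libraries. The counting's strand setting is not given in the sources used here, and of the genes named below 36 share exon bases with a gene on the opposite strand, whose reads could then not be told apart. They are Bcl3, Bmp4, C1s1, Ccnd2, Cdkn1c, Chrm2, Cp, Cryab, Cxcl10, Des, Gbp2, Gm26722, Hand2, Hif1a, Icam1, Junb, Mmp11, Mt2, Myom1, Ncam1, Nlrc5, Pdgfa, Pdgfra, Pln, Plxna4, Psmb8, Psmb9, S1pr3, Slc2a1, Slc7a2, Smtn, Stat3, Tagln, Tgfb3, Timp3 and Vcam1. In addition, 7 genes share exon bases with a gene on the same strand: Cd74, Col3a1, Hif1a, Pdgfra, Rtp4, Slpi and Spp1.

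**Figure D1:**
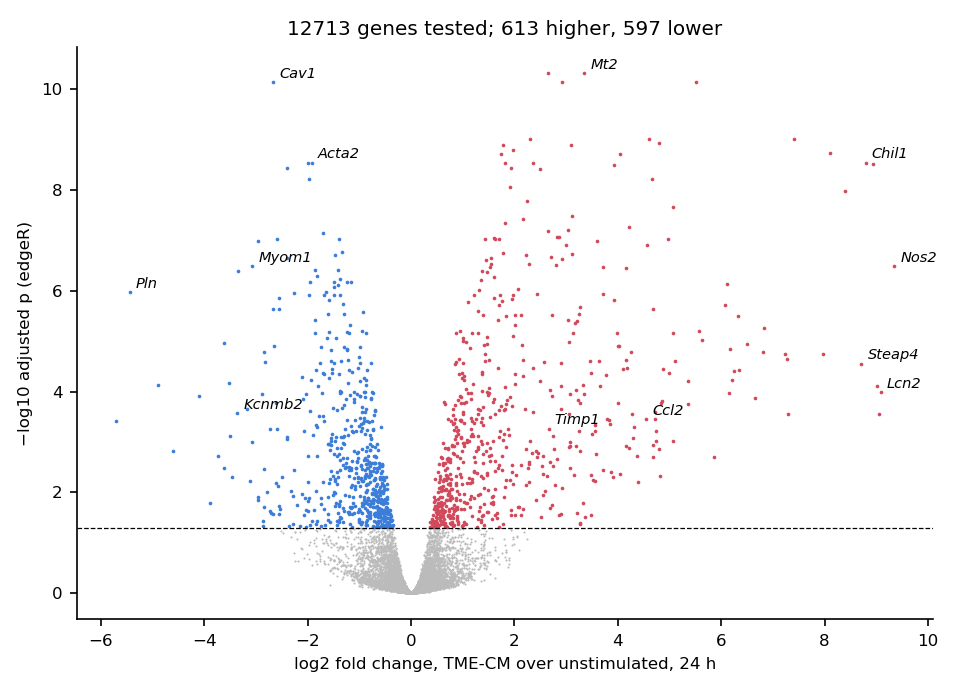
Each of the 12713 genes tested is a point, with the log2 fold change between TME-CM and unstimulated EGCs at 24 h (4 libraries each) on the x axis and −log10 of the adjusted p (edgeR) on the y axis, and the dashed line marks 0.05. The 613 genes that rose (red) spread further from 0 than the 597 that fell (blue), and Nos2, Lcn2, Chil1 and Steap4 lie farthest to the right among the labelled genes.

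The 12 largest increases among genes of 5 CPM or more on average, and with groups that did not overlap, were Nos2, Lcn2, Cxcl5, Saa3, Hp, Chil1, Steap4, Saa2, Saa1, Serpina3f, Slpi and Zbp1. Of the 12, Saa3 and Lcn2 had the highest CPM in TME-CM EGCs. Saa3, an acute-phase apolipoprotein of mice (gene 20210, chr7:46711998-46719615 of GRCm38), was at 43.6, 31.7, 29.7 and 28.7 CPM in unstimulated and 20112, 16959, 17696 and 13874 CPM in TME-CM EGCs (log2 fold change 9.02, standard error 0.86, adjusted p = 7.9e-05). Every TME-CM library lay far above every unstimulated library. Lcn2, which encodes lipocalin 2, a protein that withholds iron from bacteria (gene 16819, chr2:32384637-32387739), was at 1.71, 1.82, 2.73 and 1.82 CPM against 968, 1257, 1105 and 1178 CPM (log2 fold change 9.09, standard error 0.90, adjusted p = 0.0001). The 4 TME-CM values of Lcn2 lay close together, and the groups were far apart. Cxcl5, a chemokine that attracts neutrophils, was at 0.856, 0.364, 0.16 and 0.42 against 245, 132, 191 and 333 CPM (log2 fold change 9.04, standard error 1.05, adjusted p = 0.00028). In H-CM EGCs the same genes were at intermediate levels that varied widely, with 1815, 392, 222 and 270.4 CPM for Saa3, 99.6, 20.9, 11.5 and 8.56 CPM for Lcn2 and 43.2, 7.14, 4.07 and 4.56 CPM for Cxcl5.

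Several of these genes were almost silent without stimulation, and their ratio rests on a handful of reads. Nos2, the inducible nitric oxide synthase (gene 18126, chr11:78920787-78960226), had 1 read over the 4 unstimulated libraries and 978 reads over the 4 TME-CM libraries, at 56.4, 18.3, 45.9 and 54.8 CPM. The ratio of its summed counts per scaled total was 1080.2, with an exact 95% interval of 193 to 42711 that covers counting error only. Hp, which encodes the hemoglobin scavenger haptoglobin, had 1 read against 729 (ratio 805, 144 to 31847), and Chil1, a chitinase-like protein secreted by reactive astrocytes and macrophages, had 1 against 599 (ratio 662, 118 to 26176). For Steap4, a metalloreductase of iron and copper, the reads were 2 and 1036 (ratio 572, 158 to 4731), and for Serpina3f, a protease inhibitor, 3 and 546 (ratio 201, 68.4 to 978). Saa1 and Saa2, the serum amyloids of the liver's acute-phase response, had 3 and 1 unstimulated reads against 911 and 456. These last are near-identical copies of each other, and reads that mapped to more than 1 place had been discarded, so how the counts divide between them is uncertain. The same holds for the Serpina3, Sprr2, Ifit, guanylate-binding protein and H2 families. Slpi, a secreted inhibitor of leukocyte proteases, reached 38.4 ± 20.3 CPM, and Zbp1, a sensor of nucleic acids, 17.9 ± 6.76 CPM.

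The 12 largest decreases, by the same rule, were Pln, Sprr3, Kcnmb2, Sprr2k, Myom1, Acta1, Gm26722, Wscd2, Ramp1, Cxcl14, Sprr1a and Cav1. Pln encodes phospholamban, the regulator of the calcium pump of muscle (gene 18821, chr10:53337686-53345999), and fell from 7.42, 12, 13.3 and 6.86 CPM to 0, 0.872, 0.152 and 0.19 CPM (log2 fold change −5.44, standard error 0.60, adjusted p = 1.1e-06). Myom1 and Acta1, genes of the sarcomere, went from 33.7 ± 10.8 to 4.32 ± 1.83 CPM and from 38.7 ± 5.96 to 5.16 ± 1.73 CPM (log2 fold changes −3.07 and −2.96, adjusted p = 3.2e-07 and 1e-07). Cav1, the main protein of caveolae, had the smallest adjusted p of the 12: 119.8, 124, 109 and 118 CPM in unstimulated against 16.1, 23.1, 19.7 and 16.4 CPM in TME-CM EGCs (log2 fold change −2.67, standard error 0.15, adjusted p = 7.2e-11). Kcnmb2, a subunit of calcium-activated potassium channels, was at 14 ± 5.78 against 1.67 ± 1.56 CPM (log2 fold change −3.36, standard error 0.53, adjusted p = 0.00026), and Ramp1, a subunit of the receptor for the neuropeptide CGRP, at 11.3 ± 1.87 against 1.64 ± 0.497 CPM (log2 fold change −2.83, standard error 0.39, adjusted p = 2.5e-05). Sprr3, Sprr2k and Sprr1a, small proline-rich proteins best known from the cornified envelope of squamous epithelia, had log2 fold changes of −3.61, −3.34 and −2.67 at adjusted p values of 1.1e-05, 4e-07 and 2.2e-06.

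**Figure D2:**
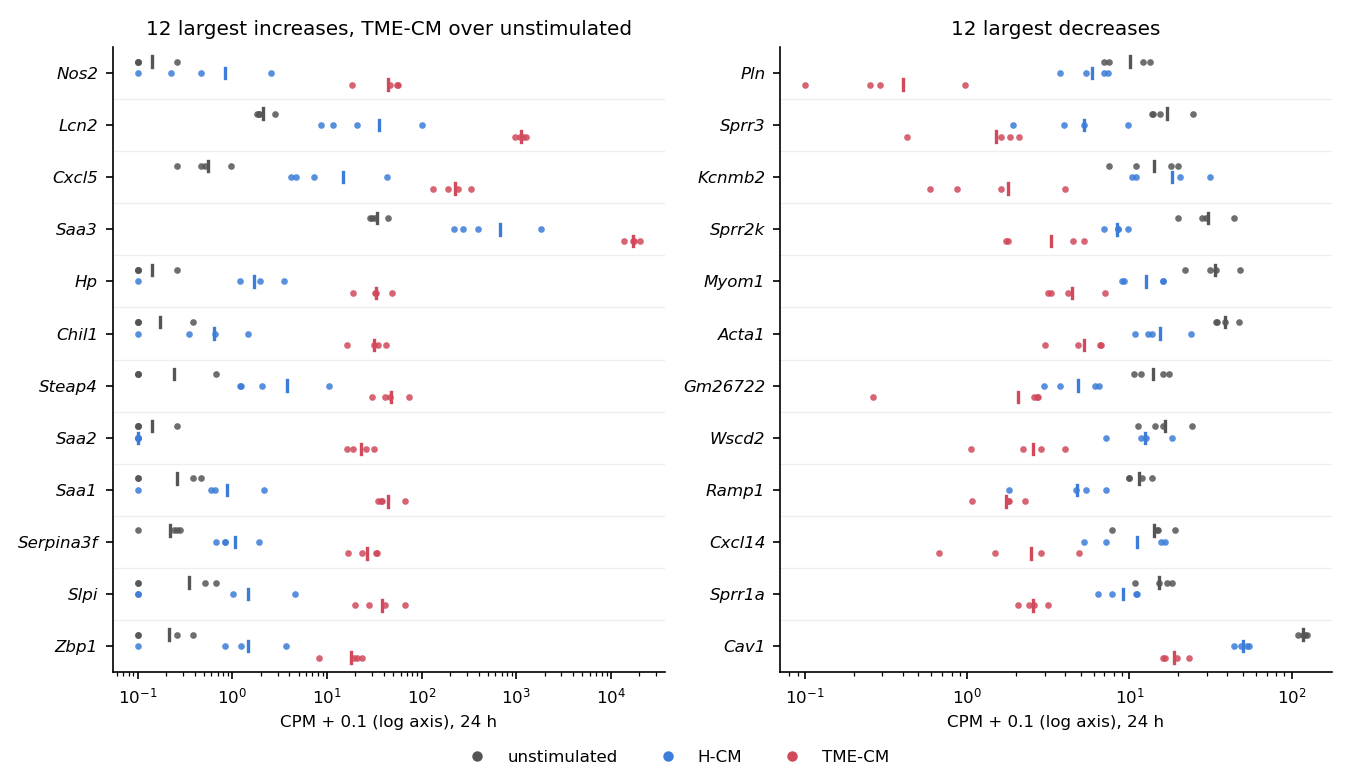
CPM plus 0.1 on a log axis at 24 h for the 12 largest increases (left) and decreases (right), with 1 point per library, a vertical bar at the mean of the 4 libraries of a group, and unstimulated in grey, H-CM in blue and TME-CM in red. All 24 genes were chosen by a rule that asks for TME-CM and unstimulated points without overlap, and for Saa3 and Lcn2 the H-CM points lie between them.

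The promoters of the 6 increases and 2 decreases with the largest changes that had an entry in the RefSeq table of promoters (build GRCm38.p6) are given to show what sequence lies before genes that moved this far. Each runs 5′ to 3′ over 300 bases, from 250 before to 50 after the start site that the table gives. For Saa3 and Saa1 this site lies inside the gene as annotated, and for the other 6 it is the gene's first base. Capitals mark matches on either strand to 5 motifs, and runs of capitals longer than a motif are overlapping matches: the NF-kappaB consensus, C/EBP (TTNNGNAA), the interferon-response element (GAAANNGAA), STAT (TTCNNNGAA) and the CArG box of serum response factor. Those of Lcn2 (chr2:32387690-32387989, minus strand), Saa3 (chr7:46715627-46715926, minus strand), Chil1 (chr1:134181906-134182205, plus strand), Steap4 (chr5:7960222-7960521, plus strand), Saa2 (chr7:46751583-46751882, plus strand), Saa1 (chr7:46742931-46743230, minus strand), Pln (chr10:53337436-53337735, plus strand) and Sprr3 (chr3:92458671-92458970, minus strand) read as follows.
Lcn2: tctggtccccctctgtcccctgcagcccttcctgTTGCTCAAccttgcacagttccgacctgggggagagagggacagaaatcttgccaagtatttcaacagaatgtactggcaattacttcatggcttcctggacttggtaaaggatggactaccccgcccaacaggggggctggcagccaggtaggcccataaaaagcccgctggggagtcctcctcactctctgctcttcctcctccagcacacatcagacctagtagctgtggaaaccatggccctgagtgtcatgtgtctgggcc
Saa3: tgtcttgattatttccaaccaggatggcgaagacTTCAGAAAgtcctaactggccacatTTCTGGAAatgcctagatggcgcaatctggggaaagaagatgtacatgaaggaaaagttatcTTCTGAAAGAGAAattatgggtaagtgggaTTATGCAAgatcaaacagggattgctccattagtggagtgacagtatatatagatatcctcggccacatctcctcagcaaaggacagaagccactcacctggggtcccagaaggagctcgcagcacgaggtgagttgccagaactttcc
Chil1: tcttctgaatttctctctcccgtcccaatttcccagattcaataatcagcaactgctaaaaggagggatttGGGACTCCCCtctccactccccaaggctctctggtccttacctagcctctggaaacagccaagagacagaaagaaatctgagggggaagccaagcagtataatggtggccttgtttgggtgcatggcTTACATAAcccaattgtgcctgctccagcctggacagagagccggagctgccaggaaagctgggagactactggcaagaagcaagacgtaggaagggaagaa
Steap4: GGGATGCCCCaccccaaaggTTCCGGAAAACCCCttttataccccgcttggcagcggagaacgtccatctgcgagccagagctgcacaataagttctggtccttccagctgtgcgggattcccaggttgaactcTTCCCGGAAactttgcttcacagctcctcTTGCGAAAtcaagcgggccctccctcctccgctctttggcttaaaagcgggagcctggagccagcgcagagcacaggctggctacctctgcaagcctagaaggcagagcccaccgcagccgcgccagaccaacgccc
Saa2: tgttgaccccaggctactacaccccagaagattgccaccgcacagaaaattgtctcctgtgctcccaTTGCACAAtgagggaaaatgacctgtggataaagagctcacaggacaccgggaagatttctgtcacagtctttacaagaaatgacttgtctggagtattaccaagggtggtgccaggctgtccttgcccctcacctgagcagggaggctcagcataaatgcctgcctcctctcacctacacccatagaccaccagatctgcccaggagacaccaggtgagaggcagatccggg
Saa1: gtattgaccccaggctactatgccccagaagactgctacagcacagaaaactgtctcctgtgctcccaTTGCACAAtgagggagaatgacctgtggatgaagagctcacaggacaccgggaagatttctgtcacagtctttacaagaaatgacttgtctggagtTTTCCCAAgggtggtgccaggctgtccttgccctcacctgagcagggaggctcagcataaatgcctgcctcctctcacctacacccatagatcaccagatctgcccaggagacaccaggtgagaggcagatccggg
Pln: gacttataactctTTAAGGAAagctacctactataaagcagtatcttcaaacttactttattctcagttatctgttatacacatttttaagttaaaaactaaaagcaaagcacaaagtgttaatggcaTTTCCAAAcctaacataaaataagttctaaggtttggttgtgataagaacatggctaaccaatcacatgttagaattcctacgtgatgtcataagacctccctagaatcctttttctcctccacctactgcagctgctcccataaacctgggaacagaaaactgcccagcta
Sprr3: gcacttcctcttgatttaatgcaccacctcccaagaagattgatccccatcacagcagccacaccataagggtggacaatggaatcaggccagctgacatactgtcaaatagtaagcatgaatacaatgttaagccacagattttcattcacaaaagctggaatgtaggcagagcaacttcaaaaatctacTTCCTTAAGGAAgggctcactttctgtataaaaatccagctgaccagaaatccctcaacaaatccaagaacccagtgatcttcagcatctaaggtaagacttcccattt

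All 8 promoters held at least 1 C/EBP match, and Saa3 held 4. Chil1 held 1 match to the NF-kappaB consensus and Steap4 held 2. The interferon-response letters were found in Saa3 and the STAT letters in Steap4, and the CArG box in none of the 8. Such short motifs are common. The C/EBP letters were present in 37.7% of all 18149 promoters of genes in the count table, in 29.9% of those of tested genes, in 39.6% of 444 called higher and in 27.3% of 433 called lower. In the same order the NF-kappaB consensus was found in 8.92%, 10.3%, 17.3% and 11.8%, the interferon-response letters in 8.2%, 7.12%, 16% and 4.62%, the STAT letters in 8.03%, 6.6%, 9.91% and 4.85%, and the CArG box in 1.49%, 1.41%, 1.13% and 4.62%. These shares are descriptions of 300-base windows without a test, and a match is not a site of binding.

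Most of the chemokines tested rose, and 2 fell. Of 7 CXC chemokines that attract neutrophils or are stored in platelets, 5 were tested and rose, of which 2, Cxcl2 among them, reached the filter only through TME-CM libraries. Cxcl1 was at 3.71, 2.0, 0.962 and 0.56 CPM in unstimulated and 273, 178, 196 and 311 CPM in TME-CM EGCs (log2 fold change 7.24, standard error 0.63, adjusted p = 1.8e-05). Cxcl2, which shares its receptor, was at 2.0, 0.546, 0.642 and 0.70 against 93.7, 30.5, 53.5 and 104 CPM (log2 fold change 6.33, standard error 0.57, adjusted p = 3.1e-06).

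Of 17 CC chemokines, 11 were tested and 8 rose, or 5 of the 8 that reached the filter without TME-CM libraries. Ccl2, the main attractant of monocytes, was at 78.5, 50.2, 36.1 and 35.6 against 1346, 1051, 1098 and 1144 CPM (log2 fold change 4.55, standard error 0.55, adjusted p = 0.00036). Ccl7, which acts on the same receptor, was at 20.5, 13.1, 15.4 and 14.4 against 623, 579.8, 607 and 765 CPM (log2 fold change 5.36, standard error 0.59, adjusted p = 0.00018). For both genes the groups did not overlap, and replicate 1 was the highest of the unstimulated libraries. Ccl11, the eosinophil attractant eotaxin, rose from 6 reads in all to 21.6, 14.8, 20.9 and 7.99 CPM (log2 fold change 5.86, standard error 1.05, adjusted p = 0.002). Ccl20, which attracts lymphocytes and dendritic cells, reached 4.47 ± 1.44 CPM (log2 fold change 4.37, standard error 0.90, adjusted p = 0.0019). The other CXC and CX3C chemokines moved in both directions, with 3 of 5 higher and 2 lower. Cxcl10, an interferon-induced attractant of T cells, was at 1.71, 1.64, 0.16 and 1.68 against 24.1, 73.7, 74.7 and 80.9 CPM (log2 fold change 5.62, standard error 0.56, adjusted p = 9.3e-06), with TME-CM replicate 1 lowest. Cxcl14 and Cxcl12, chemokines of resting tissue, fell, Cxcl14 from 14.8, 18.9, 14.8 and 7.7 to 2.76, 4.8, 1.37 and 0.571 CPM (log2 fold change −2.73, standard error 0.48, adjusted p = 0.00055) and Cxcl12 from 152 ± 5.65 to 76 ± 15.1 CPM (log2 fold change −0.99, standard error 0.15, adjusted p = 6.1e-05).

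Of 14 acute-phase genes 9 were tested and rose, and 4 of the 9 (Saa1, Saa2, Hp and Ptx3) reached the filter only through TME-CM libraries. Beside Saa1, Saa2, Saa3, Hp and Lcn2 these included Cp, Ptx3 and Serpina3n. Ceruloplasmin (Cp), the ferroxidase of plasma, was at 3.71, 5.46, 2.89 and 6.72 against 432, 257, 346 and 263 CPM (log2 fold change 6.07, standard error 0.45, adjusted p = 1.9e-06). Ptx3, a long pentraxin, rose from 0, 0.364, 0.481 and 0.28 to 9.27, 5.23, 5.33 and 5.33 CPM (log2 fold change 4.27, standard error 0.73, adjusted p = 0.00027). Serpina3n, a protease inhibitor of reactive astrocytes, rose from 6.41 ± 3.48 to 70.4 ± 30.7 CPM (log2 fold change 3.45, standard error 0.40, adjusted p = 2.5e-05). Among 12 tested of 21 complement genes, 4 rose and 1 fell. C3, the central component, went from 0.285, 1.46, 2.25 and 1.54 to 192, 81.1, 191 and 141 CPM (log2 fold change 6.64, standard error 0.72, adjusted p = 0.00013). C1ra, a protease of the first component, rose from 1.84 ± 1.01 to 35.1 ± 6.12 CPM (log2 fold change 4.21, standard error 0.37, adjusted p = 5.5e-08). The partner protease C1s1 and their inhibitor Serping1 rose too, with log2 fold changes of 3.22 and 2.25. Cd59a, which blocks the terminal complex, fell (log2 fold change −1.02, standard error 0.23, adjusted p = 0.0051), with TME-CM and unstimulated values that overlapped.

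Cytokines and their receptors changed in part. In the IL-6 family, 6 of 12 tested genes rose and none fell. Il6 reached the filter only through TME-CM libraries, and 5 of the 11 others rose. Il6 itself was at 2.0, 1.27, 1.12 and 0.14 CPM in unstimulated and at 25.9, 10.9, 10.7 and 12 CPM in TME-CM EGCs (log2 fold change 3.82, standard error 0.64, adjusted p = 0.00037). Osmr, the receptor subunit for oncostatin M, rose from 15.7 ± 2.65 to 66 ± 11.5 CPM (log2 fold change 2.06, standard error 0.22, adjusted p = 9.4e-07). Socs3, the feedback inhibitor that STAT3 induces, rose from 5.99, 15.7, 12.7 and 13.9 to 95.6, 70.7, 72.4 and 68.3 CPM (log2 fold change 2.64, standard error 0.23, adjusted p = 6.4e-08). Stat3 rose too, by less (log2 fold change 0.55, standard error 0.12, adjusted p = 0.0027). In the IL-1 family, 5 of 12 tested genes rose, or 3 when TME-CM replicate 4 was left out. Il1rn and Il1r2 reached the filter only through TME-CM libraries, and 3 of the 10 others rose. The receptor Il1r1 went from 19.1 ± 1.55 to 61.1 ± 12.3 CPM (log2 fold change 1.69, standard error 0.19, adjusted p = 1.9e-06). Both inhibitors of the pathway rose as well. The antagonist Il1rn went from 0.856, 0.91, 0.962 and 0.70 to 15.3, 9.16, 14.3 and 17.3 CPM (log2 fold change 4.02, standard error 0.53, adjusted p = 1.2e-05), and the decoy receptor Il1r2 reached 2.98 ± 1.45 CPM after 4 unstimulated reads (log2 fold change 3.91, standard error 0.90, adjusted p = 0.005). Of 9 colony-stimulating and macrophage factors tested, 3 rose (Spp1, Mif and Pdgfa) and 1 fell, counts that were 5 higher without unstimulated replicate 2 and 0 lower without TME-CM replicate 1. Spp1, or osteopontin, was at 193, 112, 91.6 and 108 against 432, 362, 311 and 281 CPM (log2 fold change 1.46, standard error 0.21, adjusted p = 0.0001). Csf1, the growth factor of macrophages, was at 265 ± 60.2 and 359.5 ± 39.7 CPM (log2 fold change 0.44, standard error 0.18, adjusted p = 0.15) and passed the test without unstimulated replicate 2, with an adjusted p of 0.03.

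Of 18 NF-kappaB subunits and feedback genes tested, 8 rose and none fell, and 5 rose in each of the fits without TME-CM replicate 1, TME-CM replicate 3, unstimulated replicate 2 or unstimulated replicate 4. TME-CM replicate 2, which stood apart, was the lowest TME-CM library for 7 of the 8, against 236 of all 613 genes that rose. Those with the largest changes were the atypical inhibitors Bcl3 and Nfkbiz. Bcl3 was at 4.56, 7.28, 2.41 and 3.5 against 73.2, 36.2, 61.7 and 56.3 CPM (log2 fold change 3.71, standard error 0.34, adjusted p = 3.4e-07). Nfkbiz was at 16, 14.7, 14.6 and 18.2 against 161, 101, 138 and 145 CPM (log2 fold change 3.1, standard error 0.21, adjusted p = 1.2e-09). The classical inhibitor Nfkbia rose from 135 ± 8.64 to 451 ± 39.3 CPM (log2 fold change 1.74, standard error 0.12, adjusted p = 1.9e-09). Ier3, an early response gene that NF-kappaB induces, was at 109, 111, 113 and 123 against 851, 579, 692 and 744 CPM (log2 fold change 2.65, standard error 0.14, adjusted p = 4.7e-11). Sod2, the mitochondrial superoxide dismutase, was at 95.3, 84.3, 89.7 and 86.8 against 717, 678, 630.4 and 681 CPM (log2 fold change 2.93, standard error 0.17, adjusted p = 7.2e-11). For both genes the 4 libraries of each group lay close together and the groups were well apart. Of the 20 immediate early genes tested, 3 rose and 3 fell. Junb rose with a log2 fold change of 0.99 and Klf2 fell with one of −1.31 (adjusted p = 5.5e-05 and 1.8e-06).

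Interferon-stimulated genes rose almost throughout. Of 31 tested of 35 type I interferon-stimulated genes, 28 rose and none fell, and of the 27 that reached the filter without TME-CM libraries 25 rose. Ifit1, an inhibitor of viral translation, was at 0.571, 5.46, 1.12 and 5.74 against 63.2, 107, 144 and 86.6 CPM (log2 fold change 4.84, standard error 0.57, adjusted p = 0.00017). Rtp4, an interferon-induced chaperone of receptor transport, went from 3.99, 2.37, 2.73 and 3.78 to 56.6, 123, 139 and 126 CPM (log2 fold change 5.11, standard error 0.50, adjusted p = 2.4e-05). In both genes TME-CM replicate 1 was the lowest TME-CM library and still lay above every unstimulated one.

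All 11 tested guanylate-binding proteins and immunity-related GTPases, which type II interferon induces, rose as well, 4 of them tested only through TME-CM libraries. Gbp3 went from 0.571, 2.18, 1.76 and 1.82 to 36.3, 47.6, 88.4 and 39.6 CPM (log2 fold change 4.97, standard error 0.40, adjusted p = 9.3e-08) and Iigp1, one of the immunity-related GTPases, from 13 ± 3.75 to 339 ± 196 CPM (log2 fold change 4.74, standard error 0.65, adjusted p = 0.00094). Members of this family resemble each other, and their single counts are uncertain to the extent that reads were shared. The class I pathway of antigen presentation had 14 of 19 tested genes higher and none lower, or 10 of the 14 that reached the filter without TME-CM libraries. H2-K1 was at 30.5, 18.7, 21.7 and 14.6 against 81.1, 245, 223 and 258 CPM (log2 fold change 3.26, standard error 0.40, adjusted p = 0.00017). Nlrc5, the transactivator of class I genes, rose from 0.428 ± 0.35 to 6.57 ± 6.16 CPM (log2 fold change 3.87, standard error 0.85, adjusted p = 0.004). Psmb9, a subunit of the immunoproteasome, rose from 0.285, 0.546, 0.481 and 1.12 to 5.04, 17.4, 13.3 and 16.7 CPM (log2 fold change 4.26, standard error 0.57, adjusted p = 1.6e-05). Of 7 class II genes tested, 4 rose, all at low levels. Of the 7, 4 (H2-Aa and Cd74 among them) were tested only through TME-CM libraries, and 1 of the 3 others rose. H2-Aa reached 1.63, 6.54, 5.49 and 5.33 CPM (log2 fold change 3.57, standard error 0.73, adjusted p = 0.0017). For Cd74 the groups overlapped, with 0.856, 0, 1.28 and 0.42 against 0.65, 10.03, 4.57 and 4.57 CPM (log2 fold change 2.85, standard error 0.83, adjusted p = 0.028), and the adjusted p was 0.084 without unstimulated replicate 1 and TME-CM replicate 2 together. With 1 library left out it was 0.089 without TME-CM replicate 2, 0.061 without TME-CM replicate 3, 0.061 without TME-CM replicate 4, 0.089 without unstimulated replicate 2 and 0.096 without unstimulated replicate 4.

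TME-CM libraries differed among themselves in the interferon genes. TME-CM replicate 1 was the lowest of the 4 for 44 of the 53 genes that rose in the interferon, GTPase and class I lists, and for 169 of the 613 genes that rose in all. The same library was the highest of the 4 for 7 of 9 acute-phase genes and for 7 of 11 genes of metallothioneins and iron handling, against 167 of 613. In each of the 12 fits that left out 1 library, this one included, 28 of the interferon-stimulated genes and all 11 GTPases were called higher, and the class I count lay between 13 and 15. What set this library apart was not tested.

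**Figure D3:**
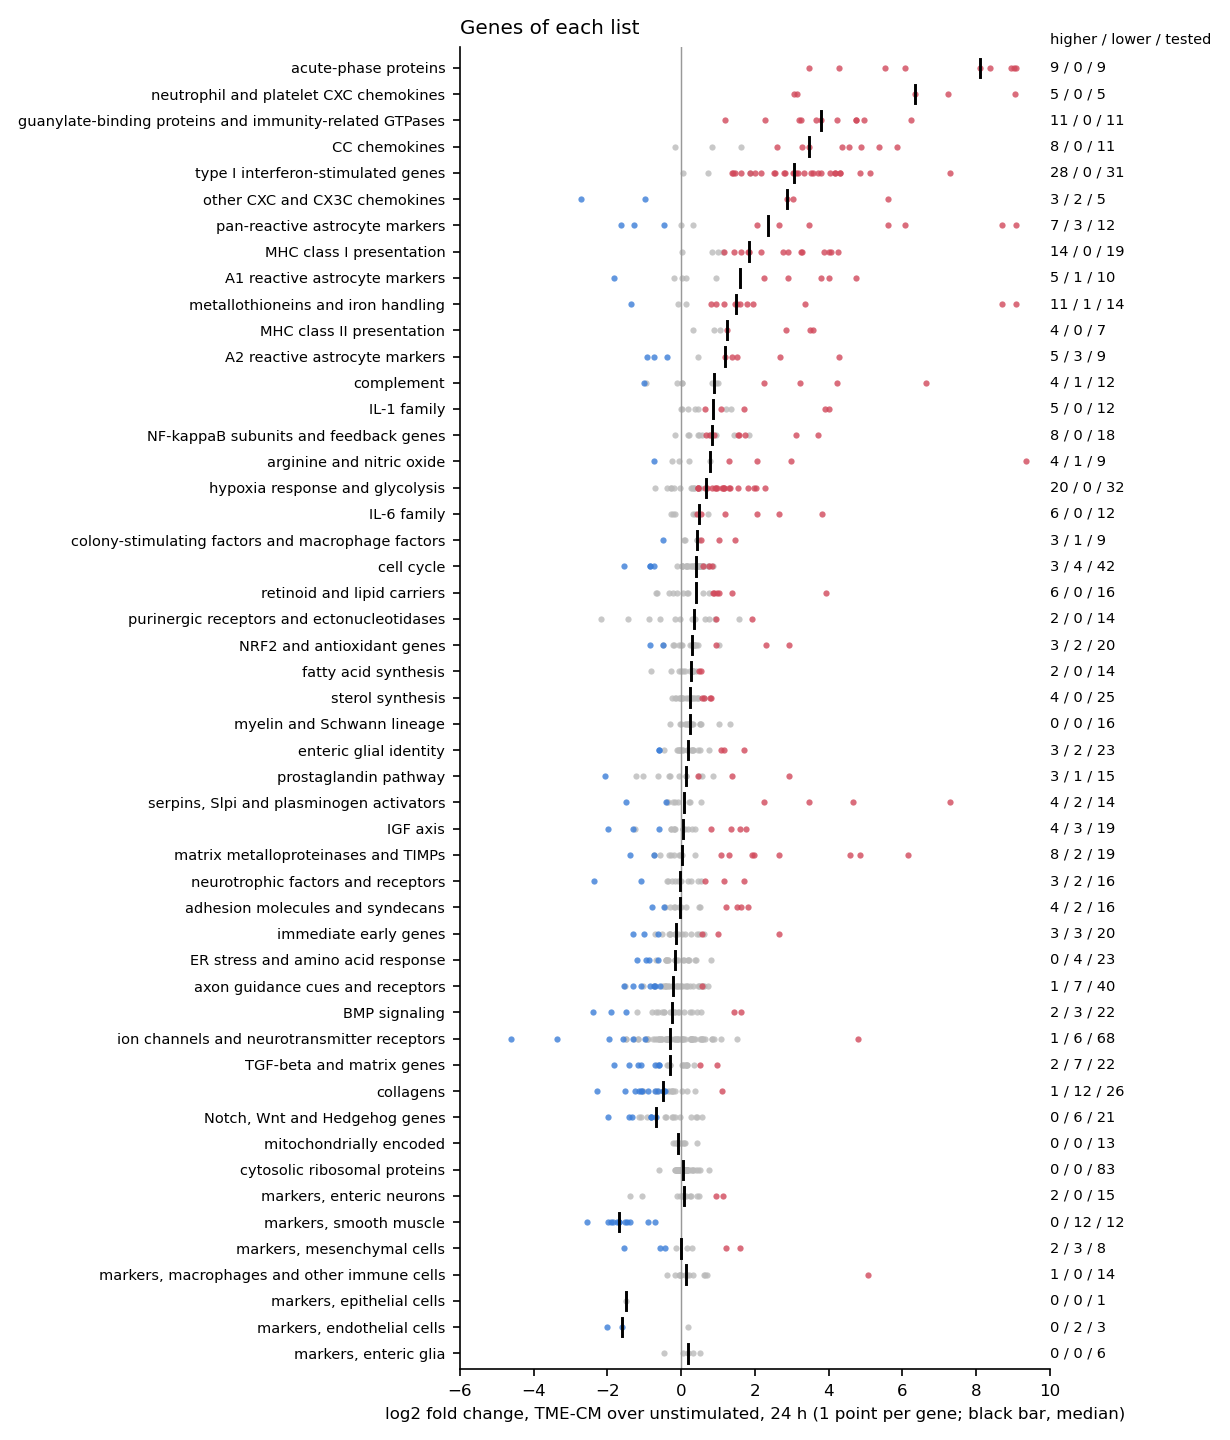
Each point is 1 tested gene of the list named at the left, placed at its log2 fold change between TME-CM and unstimulated EGCs at 24 h, red where it rose, blue where it fell and grey where it did not pass the test, with a black bar at the list's median and the counts of higher, lower and tested genes at the right. Lists are ordered by median, from acute-phase proteins (9 of 9 higher) down to Notch, Wnt and Hedgehog genes (6 of 21 lower), followed by 2 reference lists and the cell type markers.

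Of 19 matrix metalloproteinases and inhibitors tested, 8 rose and 2 fell (median log2 fold change 0.03). Mmp3, or stromelysin 1, was at 6.85, 6.92, 6.58 and 5.46 against 654, 246, 362 and 569 CPM (log2 fold change 6.16, standard error 0.52, adjusted p = 1.5e-05). Mmp9, a gelatinase, was at 22, 26, 33.7 and 39.2 against 1068, 531, 773 and 1148 CPM (log2 fold change 4.85, standard error 0.53, adjusted p = 0.00015). Mmp13, an interstitial collagenase, was at 4.56, 1.09, 2.89 and 5.18 against 112, 59.8, 71.2 and 82.4 CPM (log2 fold change 4.57, standard error 0.36, adjusted p = 1.2e-07). None of the 3 proteases overlapped between the groups. Timp1, an inhibitor of these enzymes, rose from 249, 127, 152 and 148 to 1297, 869, 898 and 1196 CPM (log2 fold change 2.66, standard error 0.37, adjusted p = 0.00054). Another inhibitor, Timp3, and the protease Mmp11 were the 2 that fell, and both are named because the count is small and after their values were seen. Timp3 was at 669, 719, 782 and 670.3 against 215, 317, 292 and 266 CPM (log2 fold change −1.38, standard error 0.13, adjusted p = 9.3e-08). Without unstimulated replicate 1 the number that fell was 4, and without TME-CM replicate 4 the adjusted p of Mmp11 was 0.052. TME-CM replicate 2 was the lowest of the 4 TME-CM libraries for 6 of the 8 genes that rose.

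Of 26 collagen genes tested, 12 fell and 1, Col5a3, rose (median log2 fold change −0.49). Col6a3, a chain of microfibrillar collagen, was at 175, 432, 325 and 375 against 119.5, 73.3, 155 and 102 CPM (log2 fold change −1.53, standard error 0.25, adjusted p = 0.00069), whereas Col3a1, a fibrillar collagen, was at 1025 ± 87.7 and 1139.6 ± 187 CPM (log2 fold change 0.15, standard error 0.13, adjusted p = 0.62). For Col1a1 the change was small (log2 fold change −0.43, standard error 0.13, adjusted p = 0.045), the groups overlapped, and with 1 library left out the call was kept only without unstimulated replicate 1, TME-CM replicate 3 or H-CM replicate 1. With single libraries left out, the count of lower collagens ranged from 8 to 13. TME-CM replicate 2 was the lowest TME-CM library for 9 of the 12 that fell, against 191 of all 597. Of 22 TGF-beta and matrix genes tested, 7 fell and 2 rose, the latter being 1 without TME-CM replicate 3, TME-CM replicate 4 or unstimulated replicate 4. Tgfb3 went from 119, 128, 135 and 122 to 43.6, 49.3, 57 and 40.5 CPM (log2 fold change −1.4, standard error 0.14, adjusted p = 3.9e-07). Fbln5, a protein of elastic fibres, fell from 93.9, 73.7, 83.4 and 74.5 to 15.4, 27, 30.03 and 20.4 CPM (log2 fold change −1.82, standard error 0.19, adjusted p = 5.1e-07). Sparcl1, a matricellular protein, fell from 505, 629, 618 and 627 to 289.6, 287, 349.8 and 139 CPM (log2 fold change −1.16, standard error 0.29, adjusted p = 0.02), and its adjusted p was 0.11 without unstimulated replicate 1 and TME-CM replicate 2 together. With 1 library left out it was 0.06 without TME-CM replicate 2, 0.057 without unstimulated replicate 2 and 0.053 without unstimulated replicate 4.

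All 12 smooth muscle markers fell, with log2 fold changes from −2.56 to −0.72 and a median of −1.69, and all 12 also did so without unstimulated replicate 1 and TME-CM replicate 2. Acta2, the actin of smooth muscle and myofibroblasts, was at 6246, 6846, 6737 and 6184 CPM against 1309, 1967, 1516 and 2113 CPM (log2 fold change −1.91, standard error 0.14, adjusted p = 2.8e-09). The groups were narrow and separate, with H-CM libraries between them at 2785, 3364, 2801 and 3029.6 CPM. Myh11, the myosin heavy chain of smooth muscle, fell from 92.4, 248, 173 and 154 to 27.3, 31, 34.6 and 21.1 CPM (log2 fold change −2.56, standard error 0.25, adjusted p = 1.4e-06). Des, the intermediate filament desmin, fell from 131, 157, 159.7 and 149 to 35.4, 39.3, 44.5 and 32.2 CPM (log2 fold change −1.98, standard error 0.15, adjusted p = 5.9e-09). Tagln, an actin-binding protein, fell from 994 ± 128 to 361 ± 36.5 CPM (log2 fold change −1.46, standard error 0.14, adjusted p = 1.9e-07). Pln, Acta1, Myom1 and Cav1 above are also expressed in muscle. The part of this fall in muscle transcripts in the decreases of collagens, channels and other genes was not tested.

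Mesenchymal markers did not move together. Dcn, the proteoglycan decorin, rose from 1026, 1039, 1059 and 1294 to 2486, 2177, 2360.2 and 3215 CPM (log2 fold change 1.21, standard error 0.13, adjusted p = 1.2e-06). Pdgfra, a receptor of platelet-derived growth factor, rose from 34.1 ± 7.15 to 104 ± 17.5 CPM (log2 fold change 1.61, standard error 0.18, adjusted p = 1.4e-06). Thy1, a surface protein of fibroblasts and neurons, fell from 68.4 ± 15.1 to 23.8 ± 7.41 CPM (log2 fold change −1.55, standard error 0.28, adjusted p = 0.00085). Pdgfrb and Col1a1 fell with log2 fold changes of −0.57 and −0.43, so that 3 markers fell, or 1 without unstimulated replicate 4. Of 6 endothelial markers 3 were tested. Kdr and Emcn fell, with log2 fold changes of −1.61 and −2.02 at adjusted p values of 0.0011 and 0.022, and the third did not pass the test (log2 fold change 0.19). The adjusted p of Emcn was 0.061 without unstimulated replicate 3 and 0.079 without unstimulated replicate 4.

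None of the 6 glial markers passed edgeR's test, with 1 at an unadjusted p under 0.05 and 0 called higher by DESeq2. 1 of them passed, as higher, without TME-CM replicate 4, and 1 when unstimulated replicate 1 and TME-CM replicate 2 were both left out. S100b, the calcium-binding protein, was at 69.9, 87.9, 83.2 and 60.1 against 59.3, 75.9, 54.6 and 29.7 CPM (log2 fold change −0.47, standard error 0.24, adjusted p = 0.30).

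In the wider list of glial identity, 3 of 23 tested genes rose and 2 fell. Ednrb, the endothelin receptor needed for colonization of the gut, rose from 14.3, 14.4, 15.1 and 14.6 to 33.3, 32.3, 23.8 and 34.4 CPM (log2 fold change 1.08, standard error 0.21, adjusted p = 0.00098). Gfra2, a co-receptor of neurturin, rose from 10.3 ± 1.27 to 22.7 ± 5.79 CPM (log2 fold change 1.15, standard error 0.22, adjusted p = 0.00076). Artn, the ligand artemin, had the third increase (log2 fold change 1.71, standard error 0.54, adjusted p = 0.049), and with 1 library left out this call was kept only without unstimulated replicate 1, TME-CM replicate 4, H-CM replicate 1 or H-CM replicate 2. Nes (nestin) and Cryab fell, with log2 fold changes of −0.59 and −0.60. None of 16 tested genes of the myelin and Schwann cell list passed edgeR's test (5 at an unadjusted p under 0.05, 0 called higher by DESeq2), their median log2 fold change being 0.24. Among 15 neuronal markers, Vip and Hand2 rose. Hand2, a transcription factor of enteric neurons and of mesenchyme, was at 258, 279, 244 and 244 against 529.7, 499.5, 459.7 and 481 CPM (log2 fold change 0.94, standard error 0.12, adjusted p = 6.3e-06). Vip, a neuropeptide of inhibitory motor neurons, was at 24.8, 22.8, 16.7 and 48.6 against 69.3, 57.6, 45.6 and 76.7 CPM (log2 fold change 1.13, standard error 0.28, adjusted p = 0.013), with groups that overlapped and an adjusted p of 0.056 without unstimulated replicate 1 and 0.054 without unstimulated replicate 2.

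**Figure D4:**
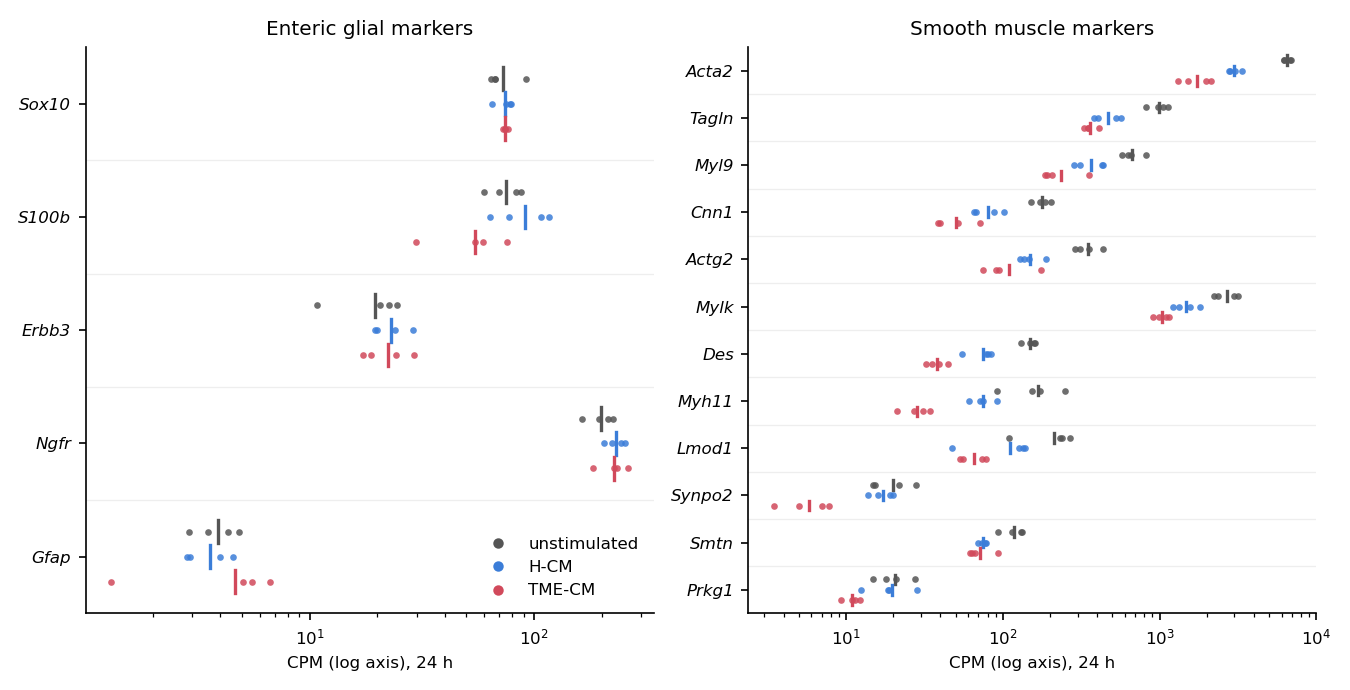
CPM on a log axis at 24 h for 5 enteric glial markers (left) and 12 smooth muscle markers (right), with 1 point per library, a vertical bar at the mean of the 4 libraries of a group, and unstimulated in grey, H-CM in blue and TME-CM in red. TME-CM and unstimulated points overlap for all 5 glial genes and are apart for 11 of the 12 muscle genes, Smtn being the exception.

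Marker genes of reactive astrocytes, the counterpart of these glia in the brain, were read as 3 lists. The lists share genes with the groups above. Of 12 pan-reactive markers tested, 7 rose (Lcn2, Steap4, Timp1, Cxcl10, Osmr, Cp and Serpina3n) and 3 fell. Steap4 reached the filter only through TME-CM libraries, and 6 of the 11 others rose. The falling genes were S1pr3, Hspb1 and Vim, named after their values were seen, with log2 fold changes of −1.63, −1.29 and −0.46 at adjusted p values of 1e-06, 2.9e-06 and 0.016. For Vim, the filament protein vimentin, the adjusted p was 0.065 without TME-CM replicate 4 and 0.058 without unstimulated replicate 4. Gfap, the intermediate filament by which reactive glia are often recognised, did not pass the test (log2 fold change 0.31, adjusted p = 0.80). Of 10 genes linked to the neurotoxic A1 state, 5 rose and 1 fell, the increases being H2-D1 and Psmb8 of antigen presentation, the GTPases Gbp2 and Iigp1, and Serping1. Of 9 genes linked to the A2 state of ischemia, 5 rose and 3 fell. Ptx3 reached the filter only through TME-CM libraries, and 4 of the 8 others rose. Among the increases were Cd14, a co-receptor for lipopolysaccharide (log2 fold change 2.69, standard error 0.57, adjusted p = 0.0025), and Ptgs2, the inducible cyclooxygenase (log2 fold change 1.38, standard error 0.19, adjusted p = 4.1e-05).

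Of 32 tested genes of hypoxia response and glycolysis, 20 rose and none fell, and 6 had a negative log2 fold change (median 0.68). Hif1a, the oxygen-regulated transcription factor, was at 135, 139.6, 144 and 144 against 579, 438, 497 and 679 CPM (log2 fold change 1.96, standard error 0.20, adjusted p = 1.2e-06). The glucose transporter Slc2a1 rose from 75.6, 63.5, 56.8 and 59.2 to 156, 203, 141 and 138 CPM (log2 fold change 1.32, standard error 0.14, adjusted p = 9.5e-07). Slc16a3, the lactate exporter, rose from 32.8, 19.1, 26 and 24.9 to 132, 142, 99.2 and 124 CPM (log2 fold change 2.28, standard error 0.22, adjusted p = 3e-07).

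Of 14 genes of metallothioneins and iron handling, 11 rose and 1 fell. Steap4 reached the filter only through TME-CM libraries, and 10 of the 13 others rose. Mt2, a metallothionein, was at 100.4, 69.9, 71.7 and 72.1 against 986, 733, 749.6 and 711 CPM (log2 fold change 3.35, standard error 0.18, adjusted p = 4.7e-11). Fth1, the ferritin heavy chain, rose from 1523, 846, 975 and 857 to 4052, 4559, 3709 and 3958 CPM (log2 fold change 1.95, standard error 0.20, adjusted p = 1.4e-06). The iron exporter Slc40a1, named after its values were seen, was the single decrease (log2 fold change −1.36, standard error 0.26, adjusted p = 0.0008). Beside Nos2, which reached the filter only through TME-CM libraries, the nitric oxide group had 3 further increases among 8 tested genes. Gch1, which starts the synthesis of the enzyme's cofactor, rose from 3.99, 4.19, 6.9 and 3.5 to 35.8, 40.1, 38.4 and 35.2 CPM (log2 fold change 2.99, standard error 0.28, adjusted p = 1.2e-07). Odc1 of polyamine synthesis rose too (log2 fold change 1.3, standard error 0.22, adjusted p = 0.00028). For Slc7a2, an arginine transporter (log2 fold change 2.07, standard error 0.51, adjusted p = 0.019), the adjusted p was 0.052 without TME-CM replicate 1, 0.051 without TME-CM replicate 4 and 0.066 without unstimulated replicate 2. In the prostaglandin pathway 3 of 15 tested genes rose and 1 fell (median log2 fold change 0.13), the number that fell being 0 to 2 with 1 library left out. The largest rise was that of Ptges, which makes prostaglandin E2, from 5.99, 6.01, 3.69 and 5.04 to 41.3, 32.7, 39.9 and 41.9 CPM (log2 fold change 2.93, standard error 0.29, adjusted p = 2.3e-07). Of 20 NRF2 and antioxidant genes tested, 3 rose and 2 fell. Gstm1, a glutathione transferase, rose from 42.8, 36.6, 41.7 and 36.1 to 181, 232, 179.7 and 185 CPM (log2 fold change 2.3, standard error 0.15, adjusted p = 9.9e-10).

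As references, 0 of 13 mitochondrially encoded genes and 0 of 83 cytosolic ribosomal protein genes passed edgeR's test. Of these 0 and 3 had an unadjusted p under 0.05, DESeq2 called 0 and 0 higher, and their median log2 fold changes were −0.08 and 0.04. In sterol synthesis 4 of 25 genes rose and none fell. In the ER stress and amino acid response 4 of 23 genes fell and none rose, the number that fell being 2 without TME-CM replicate 1 and 7 when TME-CM replicate 2 was left out.

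Of 42 cell cycle genes tested, 3 rose and 4 fell, while 37 had a positive and 5 a negative log2 fold change (median 0.40) and 23 an unadjusted p under 0.05. Of the decreases, the cyclin Ccnd2 had a log2 fold change of −0.85 and the inhibitor Cdkn1c one of −1.54 (adjusted p = 3.6e-05 and 2.5e-05). The number that rose depended on the 2 libraries that stood apart, since without them 13 rose and 4 fell. With 1 library left out the number that rose was 9 without TME-CM replicate 2, 6 without unstimulated replicate 1, 0 without unstimulated replicate 2, unstimulated replicate 3 or TME-CM replicate 4, and 1 when TME-CM replicate 1 was left out.

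Developmental signaling genes are given by list, beside 4.82% of all genes tested that rose and 4.7% that fell. The filter was reached only through unstimulated libraries, which favors a fall, by 2 BMP genes, 1 of Notch, Wnt and Hedgehog signaling and 2 of axon guidance. In each of these lists 1 gene reached it only through TME-CM libraries. Of 22 BMP genes tested, 3 fell and 2 rose. Nog (noggin), a secreted antagonist of BMPs, fell from 94.4, 124, 89.97 and 56.8 to 14, 23.1, 17.2 and 16.6 CPM (log2 fold change −2.4, standard error 0.22, adjusted p = 2.2e-07). Bmp4, a ligand, fell from 131, 106, 96.9 and 139.9 to 17.4, 57.1, 32.5 and 25.5 CPM (log2 fold change −1.89, standard error 0.31, adjusted p = 0.00072). Grem1, another antagonist, rose from 259.9, 343, 317 and 289 to 979, 683, 888 and 700.0 CPM (log2 fold change 1.43, standard error 0.13, adjusted p = 9.3e-08). Of 21 genes of Notch, Wnt and Hedgehog signaling, 6 fell and none rose (median log2 fold change −0.68), among them the Notch ligand Jag1 (log2 fold change −1.34, standard error 0.19, adjusted p = 2.5e-05) and the Notch target Hey1 (log2 fold change −1.43, standard error 0.29, adjusted p = 0.0019). Of 40 axon guidance genes, 7 fell and 1 rose, or 2 without TME-CM replicate 2. Ntn4, a netrin, and Plxna4, a semaphorin receptor, had log2 fold changes of −1.55 and −1.31 at adjusted p values of 0.00094 and 0.00081.

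Of 173 ion channels and neurotransmitter receptors only 68 were expressed well enough to be tested, of which 6 fell and 1 rose, or 3 without TME-CM replicate 2. The filter was reached by 7 of the 68 only through unstimulated libraries, which favors a fall, and by 4 only through TME-CM libraries. The increase was Kcne4, a potassium channel subunit, at 0.856, 0.546, 1.92 and 0.70 against 31.1, 28.8, 30.03 and 27.2 CPM (log2 fold change 4.81, standard error 0.32, adjusted p = 1.2e-09). The decreases included the potassium channel Kcnc4 (log2 fold change −4.61, standard error 0.93, adjusted p = 0.0015) and the muscarinic receptor Chrm2 (log2 fold change −1.59, standard error 0.20, adjusted p = 6.6e-06). Kcnc4 is not among the 12 largest decreases because it failed their rule of 5 CPM on average or of groups without overlap. Ntsr1, a receptor of neurotensin, fell from 28.5, 48.1, 41.7 and 38.5 to 8.62, 14.4, 11.6 and 13.3 CPM (log2 fold change −1.74, standard error 0.23, adjusted p = 1.3e-05).

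In the IGF axis, 4 of 19 genes rose and 3 fell, or 1 fell without TME-CM replicate 1 or unstimulated replicate 3. Igf1 was at 28.5, 38.4, 39.1 and 22.7 against 146, 82, 120.1 and 84.7 CPM (log2 fold change 1.76, standard error 0.20, adjusted p = 1.6e-06). Dlk1, a ligand-like protein of immature cells, fell from 1002, 1228, 1198 and 1243 to 274, 291, 306 and 303 CPM (log2 fold change −1.99, standard error 0.14, adjusted p = 2.8e-09). Fabp4, a fatty acid carrier, had the largest change of 6 increases among 16 retinoid and lipid carriers, from 5.71, 3.64, 3.05 and 1.68 to 55.4, 43.2, 62.3 and 40.5 CPM (log2 fold change 3.93, standard error 0.29, adjusted p = 3.2e-09). Of 16 adhesion molecules, Icam1, Vcam1, Sdc1 and Sdc4 rose and Ncam1 and Itgb1 fell. Without unstimulated replicate 1 and TME-CM replicate 2 the adjusted p of Sdc4 was 0.051. Vcam1, a receptor for leukocyte integrins, rose from 16.8, 15.8, 11.1 and 12.9 to 33.3, 30.5, 38.6 and 56.7 CPM (log2 fold change 1.51, standard error 0.23, adjusted p = 8.4e-05). The immune marker S100a8, a calcium-binding alarmin that is abundant in neutrophils, was at 0, 0.91, 0.802 and 0.84 against 36.6, 22.2, 13.7 and 24.2 CPM (log2 fold change 5.06, standard error 0.42, adjusted p = 2.1e-08). Lyz2 and Ptprc, markers of myeloid cells and of all leukocytes, had log2 fold changes of 0.63 and 0.70 at adjusted p values of 0.76 and 0.67.

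The same contrast in separate libraries of 12 h called 536 of 12156 genes (4.41%), 325 higher and 211 lower. Of the genes that rose at 24 h, 295 had risen at 12 h, which is 48.1% of the 24 h list and 90.8% of the 12 h list. For the decreases the shared number was 180, or 30.2% and 85.3%, and no gene called at both times changed direction. Replicates of 12 h spread more, with a common dispersion of 0.122 against 0.0455 at 24 h, so that a gene called at 24 h alone is not shown to have changed later. A direct test of whether the effect of TME-CM differed between 12 h and 24 h, over 16 libraries, passed for 3 of 12679 genes (0.0237%), with 443 at an unadjusted p under 0.05. The increase of Saa3 grew, from 34.6 ± 4.04 against 8160.1 ± 1171 CPM at 12 h to 33.4 ± 6.93 against 17160.4 ± 2572 CPM at 24 h (change of the log2 fold change 1.16, standard error 0.21, adjusted p = 0.04). That of Gstm1 grew as well, by 1.31 (adjusted p = 0.04), and Acta2 fell further, its log2 fold change going from −0.75 at 12 h to −1.91 at 24 h (change −1.15, adjusted p = 0.011). With 1 of the 16 libraries left out, Acta2 was called in 15 fits, the exception being the one without unstimulated 12 h replicate 1 (adjusted p = 0.06). Saa3 was called in 5 fits and Gstm1 in 3, and a fit of all 24 libraries of both times called Acta2 alone. In the separate fits Il6 had a log2 fold change of 5.44 at 12 h and 3.82 at 24 h (change in the joint fit −1.61, adjusted p = 1), and Ccl11 one of 9.65 and 5.86 (change −4.0, adjusted p = 1).

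At 6 h the 8 libraries compared held 256453 to 5244763 counts and the dispersion was 0.572. The share of counts on Yam1 went with the groups there, at 43.1% to 46.3% in 3 unstimulated and 11% to 14.2% in 3 TME-CM libraries, with 13.1% in unstimulated replicate 4 and 37.8% in TME-CM replicate 2, and its part in the 6 h result was not tested. In these libraries 42 of 9256 genes (0.454%) were called, and 36 of the 40 that were higher also rose at 24 h. The number called at 6 h ranged from 19 without unstimulated replicate 1 to 105 without TME-CM replicate 2. Ccl2, Ccl7, Cxcl1, Cxcl10 and Osmr were among them, whereas Saa3 and Lcn2 had log2 fold changes of 0.10 and 0.76 at 6 h, with adjusted p values of 0.99 and 0.95.

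**Figure D5:**
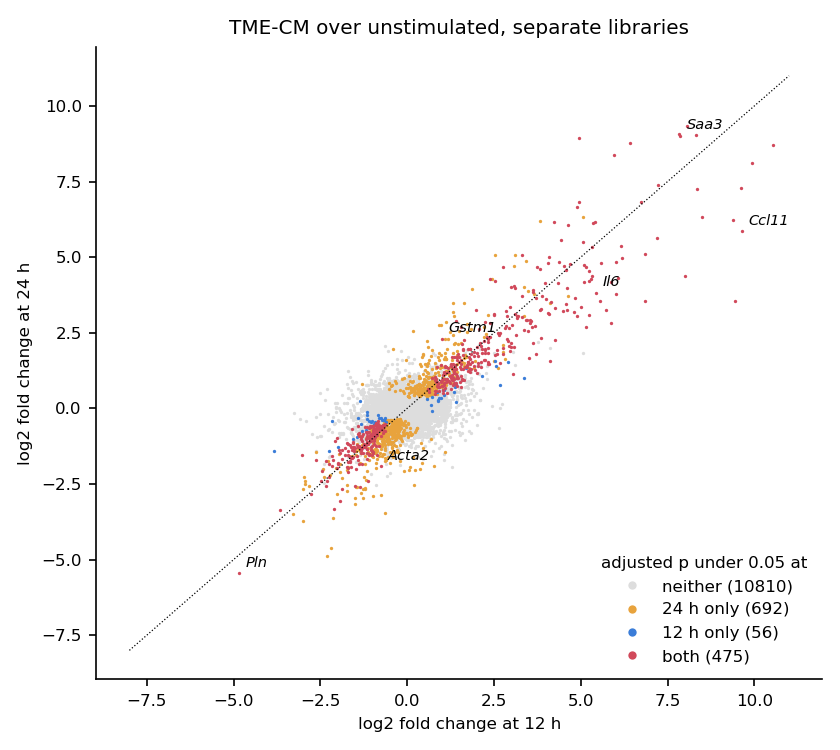
Log2 fold changes of TME-CM over unstimulated EGCs at 12 h (x axis) and 24 h (y axis), in separate libraries, for the 12033 genes tested at both times, colored by where the adjusted p (edgeR) was under 0.05, with a dotted line of equal change. The 475 genes called at both times lie in the upper right and lower left corners, and Acta2 lies below the dotted line while Saa3 and Gstm1 lie above it.

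H-CM EGCs showed part of the same changes. Comparing TME-CM with H-CM (686 genes, 5.4%) and H-CM with unstimulated EGCs (258 genes, 2.03%) uses libraries of the comparison above, and the values are given side by side. For the 31 interferon-stimulated genes tested, 22 were higher in H-CM than in unstimulated EGCs and 6 were higher in TME-CM than in H-CM EGCs. The filter was reached by 4 of the 31 only through TME-CM libraries. Rtp4 was at 61.4 ± 39.99 CPM in H-CM EGCs, with log2 fold changes of 4.28 over unstimulated (adjusted p = 0.00089) and of 0.83 from H-CM to TME-CM (adjusted p = 0.31). Acute-phase genes were higher in H-CM for 5 of 9, and all 9 were higher in TME-CM than in H-CM. Saa1, Saa2, Hp and Ptx3 of these reached the filter only through TME-CM libraries, which favors a higher value there. The 5 that reached it without them were also higher in TME-CM than in H-CM. For hypoxia response and glycolysis, 1 of 32 genes was higher in H-CM than in unstimulated EGCs and 19 were higher in TME-CM than in H-CM. Slc2a1, for example, was at 62.6 ± 4.5 CPM in H-CM EGCs (log2 fold change over unstimulated −0.02, adjusted p = 0.98). Timp1 and Sod2 had log2 fold changes of −0.14 and 0.48 for H-CM over unstimulated at adjusted p values of 0.96 and 0.16 and of 2.8 and 2.44 for TME-CM over H-CM (adjusted p = 0.00089 and 9.1e-09). Among the smooth muscle markers, 9 of 12 were lower in H-CM than in unstimulated EGCs and 7 were lower again in TME-CM than in H-CM EGCs. Kcnmb2 and Nog, which fell with TME-CM, had log2 fold changes of 0.42 and −0.12 with H-CM, with adjusted p values of 0.84 and 0.93. Whether 2 gene groups differed in the share of their change that H-CM held was not tested.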

How the data were processed

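RNA of cultured mouse EGCs was sequenced with a 3′ mRNA kit (QuantSeq) in 36 libraries, 4 for each of 3 stimulations at 6, 12 and 24 h. The authors deposited a table of raw read counts per gene. According to the study's methods they checked reads with FastQC 0.11.7, trimmed adapters, used HISAT2 to align to mm10, dropped reads with more than 1 place of mapping and counted the rest per gene with HTSeq. The gene annotation, the strand setting and any use of molecular identifiers are not given in the sources used here. Counts of 3 corresponded to 0.420 to 1.31 CPM in the 8 libraries compared, and intervals on counts cover counting error only, since PCR copies could not be removed. All genes of the table stayed in the library totals.

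Groups follow the sample titles. Counts of the 12 libraries of 24 h were fitted with edgeR 4.0.16 in R 4.3.3 (TMM factors, filterByExpr with a minimum count of 10, one mean per group, robust quasi-likelihood test, Benjamini-Hochberg over all 12713 genes tested, called at an adjusted p under 0.05). The libraries of 12 h and 6 h were fitted in the same way. The change from 12 h to 24 h is the interaction term of a fit of 16 libraries. The standard error is the absolute log2 fold change divided by the square root of the F statistic. The procedure was tested on simulated counts. CPM are given on TMM-scaled totals without a pseudocount, and the ratio of summed counts has an exact 95% interval. The share on Yam1 was compared with an exact permutation test, which cannot go below p = 0.0286 with 4 against 4 libraries.

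Genes were named by rule: the 12 largest changes in each direction among called genes of 5 CPM or more on average whose groups did not overlap, up to 6 called members with the largest change in each of 50 gene lists (with up to 4 members not called where fewer were called), all members of the 7 lists of cell type markers, and genes that the study names for this experiment. Exceptions are marked where they occur, and some genes are not reported here. The members, lists and tests were chosen with earlier results of these data known. Promoters are from RefSeq (GRCm38.p6), gene positions from the same build. Shared exon bases were counted on the same annotation, which may not be the one the authors used. Alternatives were another normalization, no filter, DESeq2 1.42.0, 8 or 36 libraries in the fit, the replicate number as a block, Yam1 left out and each library left out in turn. 4 alternatives were added after the data had been seen: leaving out both libraries with over 25% of counts on Yam1, a limit on the fold change, and single libraries left out or the block at 6 h. Whether libraries of the same replicate number shared a culture or batch is not given in the sources used here.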

Additional observations from a re-analysis of the deposited data

Results flagged for a closer look

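In groups of 4 libraries, a library was set aside for a closer look where its gap to the nearest of the others was, as a part of the range of the group, above Dixon's 95% critical value. This was asked of 228 groups and chance gives about 1 group in 20, so single entries carry little weight. TME-CM replicate 1 stood apart most often. It was low for Cxcl10 (24.1 CPM) and H2-D1 (111 CPM), and high for Il6 (25.9 CPM), Mt2 (986 CPM), Ptx3 (9.27 CPM), Saa1 (66.0 CPM) and Socs3 (95.6 CPM). The first of these are interferon-induced genes, and Saa1, Ptx3 and Socs3 belong to the acute-phase and STAT3 response. Leaving this library out ended none of these 7 calls.

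TME-CM replicate 2, the library with 35.1% of its counts on Yam1, was low for Il1r1 (42.8 CPM) and Itgb1 (984 CPM) and high for Gstm1 (232 CPM). TME-CM replicate 4 was high for Smtn (93.3 CPM) and low for Vim (1709 CPM). Among unstimulated libraries, replicate 1 was low for Ccnd2 (1979 CPM) and Sparcl1 (505 CPM) and high for Mt2 (100.4 CPM) and Sprr3 (24.5 CPM). Replicate 2 was low for Serping1 (109 CPM), and replicate 4 was high for Dcn (1294 CPM) and for Sox10 (91.9 CPM).

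The effect of TME-CM differed between 12 h and 24 h, by the test of the interaction term, for Acta2 (change of the log2 fold change −1.15), Gstm1 (1.31) and Saa3 (1.16). Over the 16 fits with 1 library left out these changes lay between −1.29 and −1.06, between 1.20 and 1.44 and between 1.05 and 1.30. The call was kept in 15 of the 16 fits for Acta2, but in only 3 for Gstm1 and 5 for Saa3. A fit of all 24 libraries of both times called Acta2 alone.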

How the results depend on the processing

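The count of genes called at 24 h, 1210, was within 1.5 times of this value with DESeq2 size factors, without the filter on low counts, with DESeq2's own test, with 8 libraries in the fit, without Yam1 and without both libraries with over 25% of counts on Yam1. With 1 library left out it lay between 952 and 1321 (512 to 668 higher, 440 to 667 lower). It was 265 (195 higher, 70 lower) in a model of all 36 libraries, whose dispersion is shared with the 6 h libraries, and 673 (397 higher, 276 lower) where a log2 fold change of at least 1 was asked as well. At 6 h the count of 42 was 23 with the replicate number as a block and 19 to 105 with 1 library left out. At 12 h it was 414 to 502 with 1 library left out. The 3 genes whose effect changed from 12 h to 24 h became 1 in a fit of 24 libraries and 0 to 6 with 1 library left out. The difference of the Yam1 share, 0.192 percentage points, lay between −4.95 and 3.94 with 1 library left out. The replicate block gave 1163 calls at 24 h (592 higher, 571 lower), 519 at 12 h and 3 for the change between the times. Over all genes, deviations of TME-CM and unstimulated libraries of the same number correlated at −0.162 to 0.0998. The value for unstimulated replicate 1 and TME-CM replicate 2, the libraries that stood apart, was 0.259. With such libraries in both groups, these correlations cannot decide whether replicates of the same number shared a culture or batch. The limit on the fold change was applied to the counts alone and would end calls of smaller changes, such as those of Hand2 and Ccnd2. In every other alternative at 24 h, 91 of 138 named genes called kept their call, and no result changed its direction. The model of all 36 libraries ended 44 of these calls, all named with the overall counts, leaving out both libraries with high Yam1 ended 4 and the block ended 3, among them Cd74, Artn and Col1a1. Totals of 2895248 to 6778936 counts limit what can be said of genes of a few CPM.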
